A study of Arabidopsis thaliana with 19 samples.

Results

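DOF proteins are plant-specific transcription factors with a single zinc finger, and 8 Arabidopsis DOF genes known from vascular tissue or from the OBP group were followed here across sorted cells of the shoot apex. They were TMO6 (AT5G60200), PEAR1 (DOF2.4, AT2G37590), PEAR2 (DOF5.1, AT5G02460), DOF6 (AT3G45610), OBP2 (AT1G07640), OBP1 (AT3G50410), OBP3 (AT3G55370) and DOF5.6 (HCA2, AT5G62940). They were chosen by locus, and each of the 8 was found once among the 21021 loci of the authors' averaged table, with 1 probe set each. RNA was measured on 19 Affymetrix ATH1 arrays, whose probe sets are groups of short oligonucleotides matching the same transcript. Every group came from shoot apices of ap1-1;cal1-1 double mutants grown for 28 days, in which the apex keeps making meristems in place of flowers, so the arrays hold no wild type. Apices were digested to protoplasts, and fluorescent cells were sorted by the promoter that drove the reporter. These promoters were AtML1 (labelled epidermal, n = 2), HMG (also labelled epidermal, n = 3, its gene not given in the sources used here), HDG4 (subepidermal, n = 3), KAN1 (organ circumference, n = 3), LAS (adaxial, n = 2), AtHB8 (xylem, also labelled stem, n = 3) and S17 (phloem, n = 3). Nothing in the labels ties replicates to separate plants, so p-values cover only the variation among these arrays, part or all of which may be technical.

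In the root, TMO6 and the PEAR genes are switched on in early phloem by auxin and cytokinin signalling, their proteins move into neighbouring procambial cells and promote cell division there, and class III HD-ZIP factors restrain them. DOF5.6 is known for promoting cambium formation between stem bundles, and OBP1, OBP2 and OBP3 were first described as proteins that bind OBF-type (TGA) bZIP factors. OBP1 is also known as a regulator of the cell cycle, OBP2 of indole glucosinolate synthesis and OBP3 of growth, while DOF6 is known for a role in seed germination.

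The median signal of an array was 151 to 182, and no array was identical to another. The vascular labels were checked against marker genes. The summed signal of 7 phloem markers (SUC2, AHA3, SEOR1, SEOR2, APL, SWEET11 and SWEET12) was between 33438 and 40817 on the S17 arrays, with 7 of 7 called present on every array of that reporter. On the AtHB8 arrays it was between 472 and 594, and APL, SEOR1, SEOR2 and SWEET12 were called absent on all of them. Other phloem genes were called present on all 3 AtHB8 arrays, BAM3 with a mean of 4643 (10722 in S17), CVP2 with 648 (232 in S17) and OPS with 307 (302 in S17), so AtHB8 lacked some phloem transcripts and held others. The 6 genes of xylem walls and vessels summed to between 3109 and 4364 in AtHB8 and between 723 and 1084 in S17, where CESA8 and XCP1 were called absent. XCP2 led the AtHB8 sum (mean of 2166), and XCP1 was called present on 1 AtHB8 array. By the test described below, 1 of the 6 (CESA8) was called higher in AtHB8 than in S17. In S17, 5 of the 6 were called higher than in the 5 reporters not labelled xylem or phloem. The phloem sum was at most 962 in AtML1, HMG and LAS, 2032 to 4079 in HDG4 and 926 to 1817 in KAN1, where it overlapped with AtML1. On every KAN1 array 6 of the 7 were called present, and on every AtML1 array 1. The S17 sum was led by SWEET11 and SWEET12 (means of 19064 and 11424). SEOR1 and SEOR2 had higher means in HDG4 (1516 and 743) than in S17 (711 and 377), while the other phloem markers were higher in S17. Epidermal markers (6 genes) summed to between 57260.2 and 72325 in AtML1 and HMG, 48048 and 54367 in KAN1, 25152 and 30942 in LAS, 3267 and 4129 in HDG4, and at most 1870.1 in the vascular reporters. Photosynthetic markers (3 genes with a probe set) summed to between 3964 and 5656 in KAN1, 3576 and 5678 in S17, 2530.1 and 2794 in AtHB8, and 444 and 2017 in the others. In sorted cells taken as bulk, fewer cells of a type and less RNA per cell cannot be told apart. The ratio of 3′ to 5′ actin signal, a mark of RNA integrity and amplification, was 10.1 to 12.9 in the vascular reporters, inside the range of 4.44 to 19.7 in the others.

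**Figure D1:**
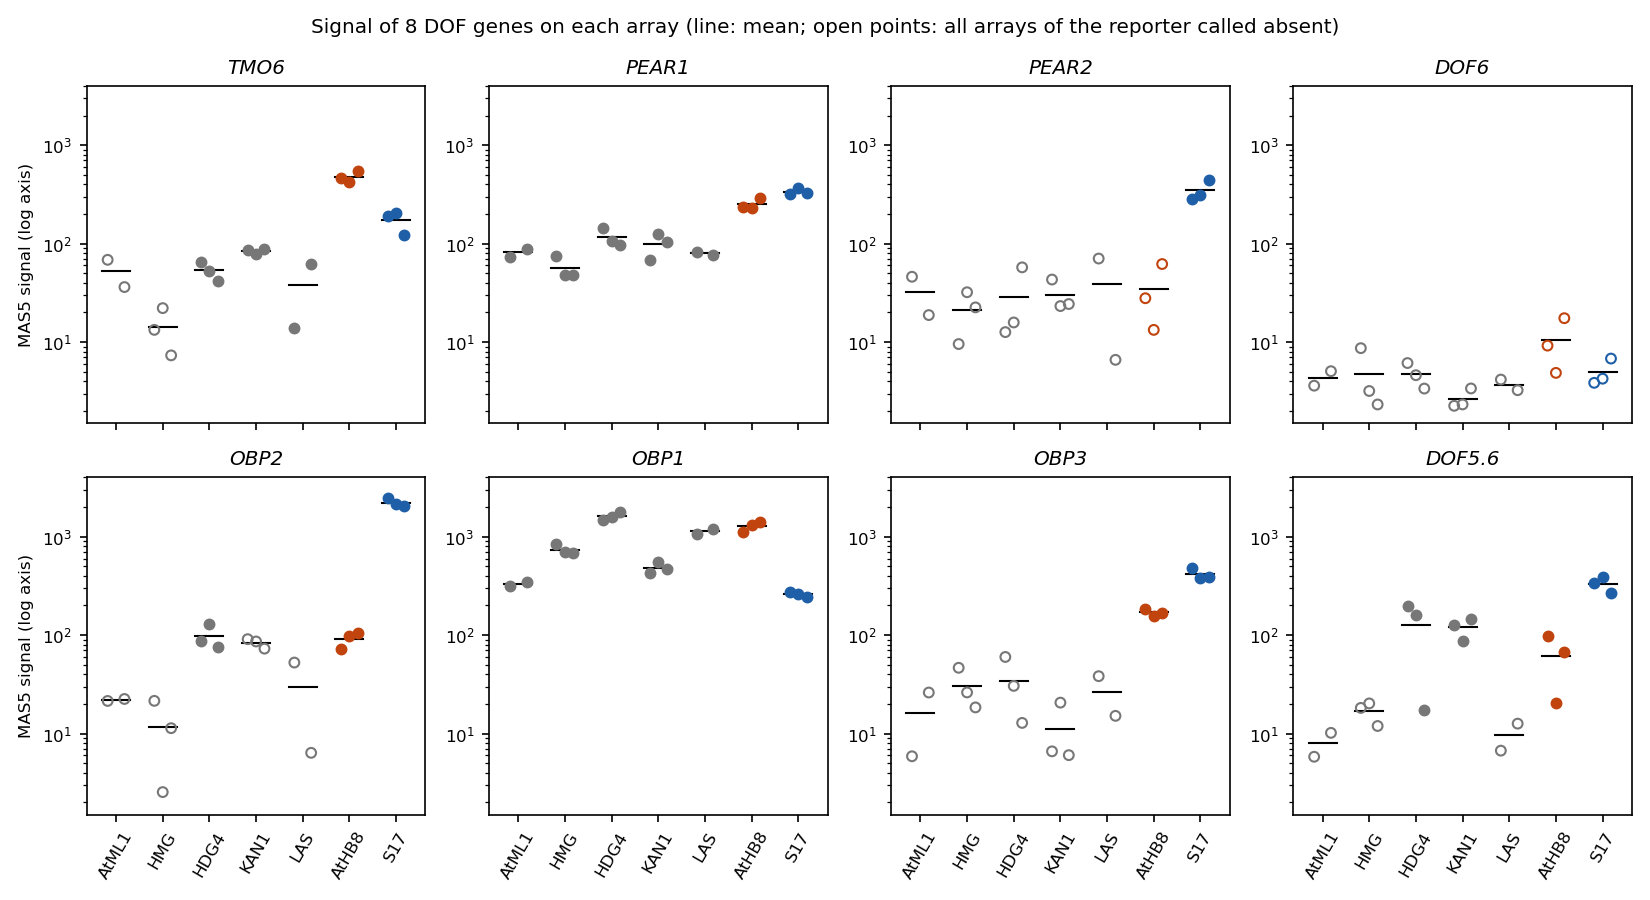
MAS5 signal (log axis) of each of the 8 DOF genes on each of the 19 arrays by reporter, with bars at the mean and open points where all arrays of a reporter were called absent; AtHB8 is in red, S17 in blue and the other reporters in grey. DOF6 lies at or below 17.5 on every array, OBP2 and PEAR2 are high in S17, TMO6 is highest in AtHB8, and OBP1 is lowest in S17.

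Of the 8 genes, TMO6, PEAR1, PEAR2, OBP2, OBP3 and DOF5.6 (6 genes) were called higher in the vascular reporters (AtHB8 and S17, n = 6) than in the 5 other reporters (n = 13), where 15.6% of the 15149 tested probe sets were called higher. None was called lower (background 13.2%). A probe set was called at an adjusted p under 0.05 in limma, over all tested probe sets, and at least a 2-fold difference. OBP1 passed the p threshold but not the fold, at a log2 difference of -0.36 ± 0.09 (SE, adjusted p = 0.00263). DOF6 was too dim to be tested. A probe set entered the test if every array of 1 or more reporters was bright. PEAR2 and DOF5.6 entered through S17 alone and TMO6 and OBP3 through AtHB8 and S17 alone, so a vascular difference was favoured for these genes here and in the comparisons of S17 and AtHB8, and the counts carry no weight beyond the values. With no filter, the 6 genes were still called (adjusted p of at most 0.00342). The 7 tested genes also differed among the 7 reporters by the moderated F test, as did 75.2% of all tested probe sets.

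TMO6, a target of the auxin response factor MONOPTEROS, was highest in AtHB8. Its signal was 464, 428 and 548 on the 3 AtHB8 arrays and 193, 206 and 123 on the 3 S17 arrays. KAN1 followed at 87.0, 79.0 and 87.6, HDG4 at 65.7, 53.0 and 42.2, AtML1 at 68.5 and 36.2, LAS at 13.9 and 62.4, and HMG at 13.3, 22.1 and 7.33. No vascular array overlapped with a non-vascular one, and AtHB8 held 53.5% of the sum of the 7 reporter means against 19.4% in S17. The vascular difference was 2.84 ± 0.27 on the log2 scale (adjusted p = 2.31e-07, limma), a 7.16-fold ratio of geometric means. Each vascular reporter alone also lay above the mean of the same 5 non-vascular reporters, AtHB8 by 3.58 ± 0.35 (adjusted p = 6.51e-07) and S17 by 2.09 ± 0.35 (adjusted p = 0.000103). These comparisons share their control arrays. Taken as a pair, S17 and KAN1, the next in level, were not called different (log2 0.996, adjusted p = 0.0817, limma), although their arrays did not overlap.

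PEAR1, a mobile phloem-early DOF, was high in both vascular reporters. It measured 319, 367 and 323 on the S17 arrays and 235, 232 and 288 on the AtHB8 arrays. Elsewhere it ranged from 47.5 on an HMG array to 143 on an HDG4 array, and it was called present on 18 of the 19 arrays. The 6 vascular arrays all lay above the 13 others, and the difference was 1.79 ± 0.14 (log2, adjusted p = 2.37e-08, limma). In order of level, S17 (336 ± 26.8, SD, n = 3) and AtHB8 (252 ± 31.3, n = 3) were followed by HDG4, KAN1, AtML1, LAS and HMG. AtHB8 exceeded HDG4 (log2 1.13, adjusted p = 0.00073), and none of the other neighbours in that order was called different.

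PEAR2, its close relative, gave a different picture. It measured 283, 314 and 446 in S17 and was called absent on all 16 arrays of the other 6 reporters, AtHB8 included. There its signal was between 6.60 and 70.6, with the AtHB8 arrays at 27.9, 13.3 and 62.1. The S17 arrays did not overlap with any other array, and their mean was at least 10.1-fold above the 5 non-vascular reporters (log2 3.76 ± 0.60, adjusted p = 6.75e-05, limma). Where a gene was called absent on every array of the dimmer group, folds are given as such bounds, computed against the dimmest probe sets that were called present. AtHB8 could not be told from the non-vascular reporters (log2 0.23 ± 0.60, adjusted p = 0.759), so the vascular call of PEAR2 (adjusted p = 0.0014) came from S17.

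OBP2 was concentrated in S17 as well. Its signals there were 2497, 2127 and 2041, and this reporter held 86.9% of the sum of its 7 reporter means. It measured 72.4, 96.8 and 105 in AtHB8, 87.9, 129 and 75.6 in HDG4, and 90.9, 86.2 and 72.9 in KAN1, and at most 52.6 on any array of AtML1, HMG or LAS. The AtHB8, HDG4 and KAN1 arrays overlapped with each other and lay far below S17. Against the non-vascular reporters S17 was higher by 6.09 ± 0.49 (log2, adjusted p = 5.49e-08, limma). AtHB8 was higher by 1.49 ± 0.49 (adjusted p = 0.0161), although its arrays overlapped with HDG4 and KAN1 and the ratio of arithmetic means was 1.87. That call was lost without AtHB8 replicate 2 (adjusted p = 0.0584) or replicate 3 (adjusted p = 0.0669), and with a pseudocount of 16 the difference fell to 0.99.

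OBP3 was called present in the vascular reporters and in no other. It measured 486, 380.3 and 387 in S17 and 186, 155 and 169 in AtHB8, and was called absent on all 13 non-vascular arrays, with signals from 5.87 to 59.98. The 3 S17 arrays lay above the 3 AtHB8 arrays, and both lay above every other array. The vascular reporters were at least 8.99-fold above the rest (log2 3.74 ± 0.36, adjusted p = 2.49e-07, limma). The bound was 14.0-fold for S17 and 5.76-fold for AtHB8 taken alone.

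DOF5.6 was highest in S17 and was also measured outside the vascular reporters. It was 339.6, 394 and 270.3 in S17, 98.2, 20.2 and 67.0 in AtHB8, 199, 160 and 17.3 in HDG4 and 126, 87.1 and 146 in KAN1. On the arrays of AtML1, HMG and LAS it was called absent, with signals from 5.81 to 20.2. S17 lay above all other arrays, while AtHB8, HDG4 and KAN1 overlapped, and HDG4 replicate 4 was as low as the epidermal arrays. S17, through which the gene entered the test, exceeded the non-vascular reporters by 3.60 ± 0.56 (log2, adjusted p = 5.25e-05, limma, and 0.000179 with no filter), and AtHB8 did not pass the test (0.93 ± 0.56, adjusted p = 0.167). Without AtHB8 replicate 2, its lowest array, AtHB8 passed (1.59, adjusted p = 0.0431).

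OBP1 ran the other way in S17 but not in AtHB8. It was called present on all 19 arrays, at 1479.7, 1589 and 1765 in HDG4, 1108, 1329 and 1394 in AtHB8, 1074 and 1204 in LAS, 844, 691 and 679 in HMG, 432, 557 and 466 in KAN1, 315 and 349 in AtML1, and 274, 261 and 244 in S17. The 3 S17 arrays were the lowest of the 19, and AtHB8 stood between HDG4 and LAS. Among neighbours in this order, HDG4 and AtHB8 were not called different (adjusted p = 0.0662), nor were AtHB8 and LAS (adjusted p = 0.442) or AtML1 and S17 (adjusted p = 0.0897), and the neighbours from LAS down to AtML1 passed the p threshold without reaching 2-fold. S17 was lower than the non-vascular reporters by a 2.83-fold ratio of geometric means (adjusted p = 4.23e-08), where AtHB8 was higher by 0.79 ± 0.12 on the log2 scale (adjusted p = 3.87e-05, under 2-fold).

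DOF6 was called absent on every array, with signals from 2.25 in KAN1 to 17.5 in AtHB8, and it did not pass the filter on dim probe sets. These signals have no order that can be read, and a level below what the probe set detects cannot be told from none.

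**Figure D2:**
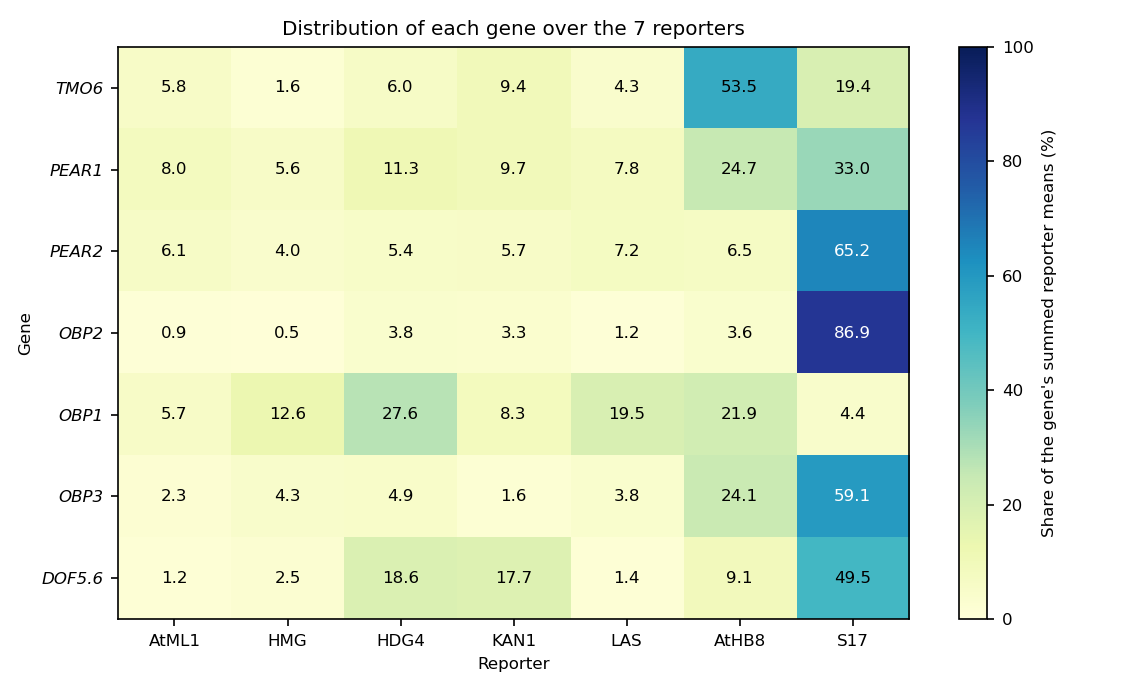
Share of each gene's summed reporter means (%, colour and printed number) found in each of the 7 reporters, for the 7 genes other than DOF6. S17 holds the largest share of OBP2 (86.9%), PEAR2 (65.2%), OBP3 (59.1%), DOF5.6 (49.5%) and PEAR1 (33.0%), AtHB8 that of TMO6 (53.5%) and HDG4 that of OBP1 (27.6%).

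Against the non-vascular reporters, AtHB8 had 4 of the 8 genes called higher (TMO6, PEAR1, OBP2 and OBP3, background 14.9%) and 0 called lower (background 12.6%, and 5 genes of either sign at an unadjusted p under 0.05 in limma). S17 had 6 called higher (the same 4 with PEAR2 and DOF5.6, background 16%) and OBP1 called lower (background 15%).

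The direct comparison of AtHB8 with S17 set the cells labelled xylem against those labelled phloem. TMO6 and OBP1 were called higher in AtHB8 (2 of the 8 genes, background 4.2%), and PEAR2, OBP2 and DOF5.6 were called higher in S17 (3 of the 8, background 4.36%). The filter favoured this direction for PEAR2 and DOF5.6, which entered through S17 alone, and with no filter both were called (adjusted p = 0.0146 and 0.0425). The arrays of the 2 reporters did not overlap for any of the 7 tested genes, with the 3 AtHB8 arrays above for TMO6 and OBP1 (as for 21.5% of all tested probe sets) and below for the other 5 (as for 17.3%). OBP1 was higher in AtHB8 by 2.29 ± 0.15 (log2, adjusted p = 1.77e-07, limma), or 4.88-fold, and TMO6 by 1.49 ± 0.45 (adjusted p = 0.0348), or 2.81-fold. The TMO6 call was lost when any 1 of the 6 arrays was left out (adjusted p from 0.0534 to 0.125) and with no filter (adjusted p = 0.0691).

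In the opposite direction, OBP2 was 24.2-fold lower in AtHB8 (log2 -4.60 ± 0.62, adjusted p = 0.000141) and PEAR2 at least 9.90-fold lower (adjusted p = 0.00583). DOF5.6 was lower too (log2 -2.66 ± 0.71, adjusted p = 0.0198), a call lost without AtHB8 replicate 2 (adjusted p = 0.0954), S17 replicate 1 (adjusted p = 0.0553) or S17 replicate 2 (adjusted p = 0.0619). PEAR1 (-0.42 ± 0.23, adjusted p = 0.241) and OBP3 (-1.28 ± 0.59, adjusted p = 0.164) were not called, although every S17 array was above every AtHB8 array for both. For OBP3 the difference passed when the pseudocount was 16 (adjusted p = 0.0199) or when the fit held the AtHB8 and S17 arrays alone (adjusted p = 0.00275).

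**Figure D3:**
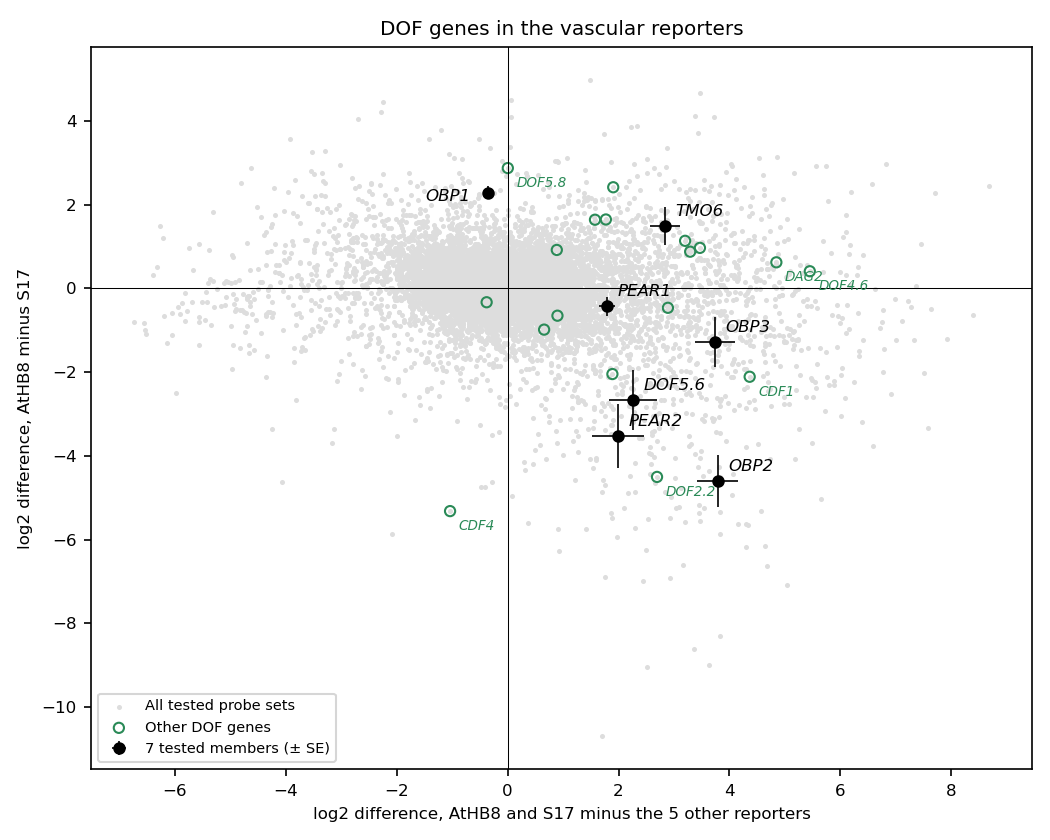
Difference between the vascular and the 5 other reporters (x axis, log2) against the difference between AtHB8 and S17 (y axis, log2) for the 7 tested genes (black, with SE), other DOF genes (green rings) and all tested probe sets (grey). OBP2, PEAR2 and DOF5.6 lie low on the right, TMO6 high on the right, and OBP1 near 0 on the x axis at 2.29 on the y axis.

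Within the non-vascular reporters, the subepidermal reporter HDG4 had OBP1, OBP2 and DOF5.6 called higher than the mean of AtML1, HMG, KAN1 and LAS (3 of the 8 genes, background 2.53%). OBP1 was higher by 1.41 ± 0.12 (log2, adjusted p = 1.03e-06, limma), with no overlap, and OBP2 was at least 2.57-fold higher (adjusted p = 0.013). DOF5.6 was higher by 2.02 ± 0.58 (adjusted p = 0.0236), and this call was lost without HDG4 replicate 1 (adjusted p = 0.141) or replicate 3 (adjusted p = 0.158). The OBP2 call was lost without HDG4 replicate 3 (adjusted p = 0.0802). HDG4 replicate 4, the array with little DOF5.6, had one of the 3 highest actin ratios, 16.2. Without these 3 arrays, a setting chosen after seeing the data, the DOF5.6 difference was 3.03. Since that setting leaves out the lowest HDG4 array for DOF5.6, a larger difference was built in and carries no weight. Whether the actin ratio had a part in the low value was not tested.

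The organ circumference reporter KAN1 had TMO6, OBP2 and DOF5.6 called higher than the other 4 non-vascular reporters (3 of the 8 genes, background 7.02%). DOF5.6 was higher by 2.63 ± 0.58 (log2, adjusted p = 0.00395, limma). TMO6 was higher by 1.37 ± 0.36 (adjusted p = 0.0117), with all 3 KAN1 arrays above the 10 others, and with a pseudocount of 16 the difference of 0.99 fell short of 2-fold. In single pairs, TMO6 in KAN1 was called higher than in HMG (adjusted p = 0.00079, limma). It was not called against HDG4 (adjusted p = 0.277), AtML1 (adjusted p = 0.333) or LAS (adjusted p = 0.0517). OBP2 passed the test (adjusted p = 0.0204) on KAN1 signals that were all called absent, so no fold is given, and the call was lost without any 1 of the 3 KAN1 arrays (adjusted p from 0.055 to 0.0788). The phloem sum was also higher in HDG4 than in AtML1, HMG and LAS, while that of KAN1 overlapped with AtML1. In AtML1, AHA3 alone averaged 553. Of the 12 tested phloem genes, KAN1 had 4 called higher and 0 lower than the other 4 non-vascular reporters (median log2 difference 1.03). In the same kind of comparison HDG4 had 5 higher and 1 lower (median 0.69). The photosynthetic markers were called higher in KAN1 for 3 of 3 (median log2 difference 2.42), and KAN1 had the lowest actin ratios (4.44 to 6.08). Their part in these differences was not tested.

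The epidermal reporters AtML1 and HMG together had OBP2 and DOF5.6 called lower than HDG4, KAN1 and LAS (2 of the 8 genes, background 2.95%). OBP2 was at least 1.93-fold lower (adjusted p = 0.00946, limma) and DOF5.6 at least 1.66-fold lower (adjusted p = 0.0178). KAN1 and LAS also carried epidermal markers at the levels given above, so in this comparison HDG4 alone was poor in them. The DOF5.6 call was lost without AtML1 replicate 1 (adjusted p = 0.0832) or LAS replicate 2 (adjusted p = 0.0515). The adaxial reporter LAS had 0 of the 8 genes called against the other 4 non-vascular reporters in limma, with 2 genes at an unadjusted p under 0.05 (background 3.57% in either direction). OBP1 came closest, higher by 0.79 ± 0.14 on the log2 scale (adjusted p = 0.00357), short of 2-fold.

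Other DOF genes were listed to show where the family as a whole stood. Of 28 listed, 24 had a probe set and 18 were tested, of which 12 were called higher and 1 lower in the vascular reporters, with a median difference of 1.90 on the log2 scale against -0.13 over all tested probe sets. The highest were DOF4.6, with means of 1069 ± 79.7 in AtHB8 and 809 ± 131 in S17 (SD, n = 3 each) and a difference of 5.45 ± 0.41 (adjusted p = 1.66e-08, limma), and DAG2, a regulator of seed germination, which was at least 11.2-fold higher. CDF1, known for repressing CONSTANS in flowering time, was higher by 4.37 on the log2 scale, DOF4.1 by 3.47, OBP4, another OBF-binding protein, by 3.29, and DAG1 by 3.20. DOF1.8 was higher by 2.89, DOF2.2 by 2.69, DOF1.6 by 1.90, COG1 by 1.89, DOF3.1 by 1.77 and DOF2.1 by 1.58. Some of these calls were led by 1 vascular reporter. In AtHB8, DOF2.2 (79.5) and COG1 (224) had lower means than in HDG4 (90.2) and AtML1 (292), respectively. In S17, DOF1.6 (79.2, called absent) was close to its KAN1 mean (74.6), and DOF2.1 (133) was below its LAS mean (148). CDF4 was the one called lower (log2 -1.04 ± 0.32, adjusted p = 0.00874), through AtHB8 alone (9.76 ± 5.24, called absent), since S17 had its highest mean (400 ± 131) and the ratio of arithmetic means, vascular over non-vascular, was above 1.

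Between AtHB8 and S17, 4 of these 18 were called higher in AtHB8 and 4 higher in S17, with a median of 0.52 against 0.04 over all tested probe sets. Those higher in AtHB8 were DOF5.8 (log2 2.88), DOF1.6 (log2 2.42, called absent in S17), DOF3.1 (log2 1.65) and DOF2.1 (log2 1.64). DOF5.8 averaged 898 ± 205 in AtHB8 and 120.2 ± 16.7 in S17 (SD, n = 3 each), and the mean of both reporters differed from the non-vascular mean by 0.00 ± 0.13 (log2, SE). Higher in S17 were CDF4, which was at least 13.4-fold lower in AtHB8, DOF2.2 (log2 -4.50), CDF1 (log2 -2.11, adjusted p = 0.0498) and COG1 (log2 -2.04). DOF2.2 averaged 1808 ± 206 in S17 against 79.5 ± 15.5 in AtHB8.

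Genes that act upstream of the PEAR genes in the root were measured in the same comparisons. Of 16 auxin and cytokinin genes, all tested, 7 were called higher and 2 lower in the vascular reporters (median 0.76), and 7 were called higher in AtHB8 than in S17 and 0 lower (median 0.97). The bHLH factors T5L1 (5.56 ± 0.41) and TMO5 (4.86 ± 0.14), which raise cytokinin synthesis, showed the largest vascular differences on the log2 scale, while AHP6, an inhibitor of cytokinin signalling (-2.81 ± 0.23), and LOG7, a cytokinin-activating enzyme (-1.54 ± 0.12), were lower. Between AtHB8 and S17 the largest were MP, which encodes MONOPTEROS (log2 3.35 ± 0.25, means of 5897 and 578), and TMO5 (3.13 ± 0.24, means of 3324 and 379).

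The class III HD-ZIP genes, known to restrain PEAR action, were called higher in the vascular reporters for 4 of 5 and higher in AtHB8 than in S17 for 3 of 5. ATHB8 itself, the gene of the reporter, averaged 9303 in AtHB8 and 1714 in S17 and was at least 127-fold higher in the vascular reporters, and CNA was higher by 3.89 ± 0.13 (log2). PHB, after ATHB8 the one with the largest difference between AtHB8 and S17 (log2 2.09 ± 0.34), averaged 5842 and 1374. SMXL5 and SMXL3, early phloem genes, were both called higher in the vascular reporters (log2 4.09 ± 0.61 and 3.90 ± 0.51), and neither was called between AtHB8 and S17. SMXL4, the other listed member, had no probe set in the averaged table.

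Among phloem genes, 12 of 16 were tested, 9 were called higher and 0 lower in the vascular reporters, and 8 were called lower and 0 higher in AtHB8 than in S17 (median -3.27). BAM3, a receptor kinase of early phloem, showed the largest vascular difference (log2 7.34 ± 0.33) with 4643 in AtHB8 and 10722 in S17, followed by SWEET12 (log2 3.82 ± 0.32), a sucrose exporter. The sucrose exporters SWEET11 and SWEET12 showed the largest differences between AtHB8 and S17, with 48.0 and 38.6 in AtHB8 and 19064 and 11424 in S17. Of 7 tested cambium genes, 4 were called higher and 1 lower in the vascular reporters, led by the receptor kinases RUL1 (log2 6.92 ± 0.21) and PXY (6.10 ± 0.25), with ANT lower (-1.17 ± 0.11). LBD4 (log2 2.23) and PXY (1.75) were called higher in AtHB8, and CLE41 and CLE44, the peptide ligands of PXY, were at least 26.0-fold and 9.99-fold lower there than in S17.

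**Figure D4:**
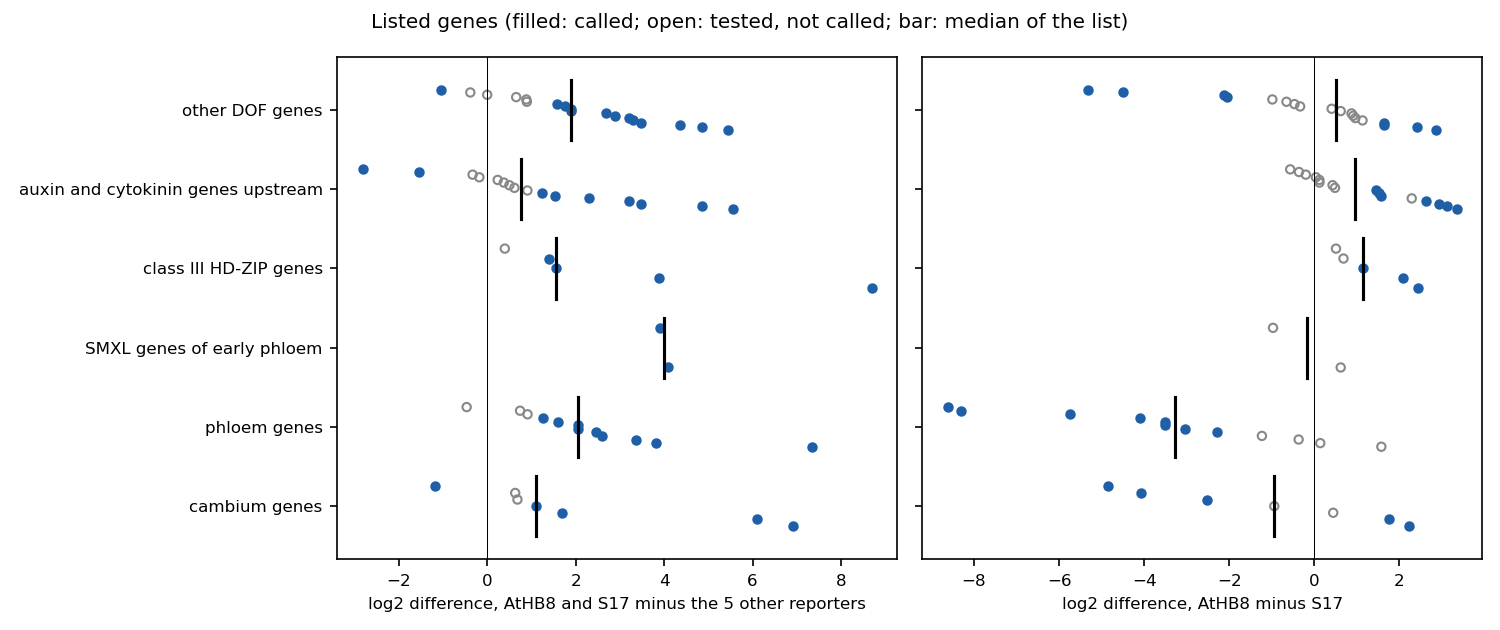
Differences (log2) of listed genes between the vascular and the 5 other reporters (left) and between AtHB8 and S17 (right), 1 point per tested gene, filled where called, with a bar at the median of each list. Phloem genes lie to the left in the right panel (median -3.27), auxin and cytokinin genes to the right (median 0.97), and other DOF genes on both sides of 0.

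Partners and targets described for the OBP and DOF6 proteins were measured too, and 3 of 6 were called higher and 2 lower in the vascular reporters. TCP14, a partner of DOF6 in seeds, was higher by 5.32 ± 0.31 on the log2 scale, with 1153 in AtHB8 and 1409.7 in S17, reporters in which DOF6 was called absent. CYP83B1, an enzyme of indole glucosinolate synthesis that OBP2 is known to raise, averaged 4625 ± 1099 in S17 and 207 ± 45.7 in AtHB8 (SD, n = 3 each). It was lower in AtHB8 than in S17 (log2 -4.47 ± 0.33, adjusted p = 4.98e-07, limma), as OBP2 was. CYCD3;3, a D-type cyclin gene reported as a target of OBP1, was lower in the vascular reporters (-1.69 ± 0.14) and higher in AtHB8 than in S17 (1.36 ± 0.23, adjusted p = 0.000843). Its lowest mean, 443 ± 16.7, was in S17, as for OBP1. The rest of its order differed: CYCD3;3 averaged 1140 in AtHB8 and 1616 in AtML1, where OBP1 averaged 1277 and 332. CDF4, also reported as an OBP1 target, had its highest mean, 400 ± 131, in S17, where OBP1 was lowest. TGA4, the OBF4 protein gene, named here after its values were seen, was at least 4.43-fold higher in the vascular reporters (119 in AtHB8 and 130.2 in S17). TGA5, the other bZIP partner gene listed, was not called (log2 -0.15 ± 0.10, adjusted p = 0.222), with 541 in AtHB8 and 345 in S17.

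The genes whose levels ran most like each DOF gene over the 19 arrays were found by Pearson's r on the log2 scale, as a description in which arrays of 1 reporter share their source. For TMO6 these were CBSX5 (r = 0.949), AT1G21050 (0.944) and AT3G56810 (0.936). For PEAR1 they were AT3G14560 (0.971), PME1 (AT4G12390, 0.970) and CYP94C1 (0.969), and for PEAR2 AT4G18340 (0.893), AT1G27030 (0.890) and MGP (0.884). OBP2 ran with AT3G43270 (0.949), XIP1, a receptor kinase (0.948), and AT1G73040 (0.942), and OBP3 with AT5G41620 (0.938), AT1G69170 (0.935) and AT4G24050 (0.932). DOF5.6 ran with AT5G54660 (0.865), SUC2, the sucrose transporter of companion cells (0.863), and MT3, a metallothionein (0.860). Like it, SUC2 (1164 in S17, 233 in KAN1) and MT3 (13740.1 and 2473) were highest in S17. Both had higher means in AtHB8 (101 and 1349) than in HDG4 (83.4 and 342). For SUC2 this difference was smaller than the SD of its HDG4 arrays. For DOF5.6 the HDG4 mean was the higher, but the arrays overlapped and no difference was called (adjusted p = 0.439, limma). OBP1 had no partner above 0.879 (AT3G47940), with AT1G05950 (0.869) and AT2G28130 (0.864) next.

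Among themselves, the members were most alike for PEAR1 and OBP3 (r = 0.857), PEAR1 and OBP2 (0.844) and TMO6 and PEAR1 (0.822), over 19 arrays. PEAR1 and PEAR2 correlated at 0.583, and TMO6 and PEAR2 at 0.296. OBP1 had a negative r with each of the other 6 tested genes, from -0.040 with TMO6 to -0.600 with PEAR2. Over the 7 reporter means the order changed, with PEAR2 and OBP2 first (0.899), then OBP2 and DOF5.6 (0.891) and PEAR1 and OBP2 (0.886). There PEAR1 and PEAR2 correlated at 0.756. These values rest in part on absent signals, as PEAR2 was called absent on 16 of the 19 arrays and DOF5.6 on 11.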

How the data were processed

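The deposited intensity values were linear MAS5 signals per probe set, named in the submitters' processing notes without a version, and trimming 2% at each end gave a mean of 500 on every array. The authors' deposited averaged table gave means per reporter, detection calls and loci. Detection calls are used as counts, since their order within a reporter was not stated. RNA was amplified in 2 rounds, per the series design. Of 22746 probe sets without controls, 15149 were tested, those that reached the 40th percentile of each array for every replicate of 1 or more reporters. Tests used limma 3.58.1 in R 4.3.3 on log2(signal + 1), with 1 mean per reporter over 19 arrays, two-sided, and Benjamini-Hochberg adjustment. Folds are on that scale, which understates dim genes, and bounds compare geometric means. The script was tested on simulated data. Levels are not compared between probe sets.

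The members, lists and tests were chosen with earlier results of these data known. Named genes were the 8 members, the 2 largest called differences in each direction per list, every other DOF gene called, and the 3 highest correlations per tested member. Means of paired reporters weight each reporter equally. Alternatives changed the pseudocount, filter, normalization, weights, block and arrays. Protein and promoter sequences were not used here. The number of arrays limits the precision.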

Additional observations from a re-analysis of the deposited data

Results flagged for a closer look

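OBP1 differed from the non-vascular reporters in opposite directions in the 2 vascular reporters. It was called lower in S17 (adjusted p = 4.23e-08 in limma), and it was higher in AtHB8 without reaching 2-fold (log2 0.79, adjusted p = 3.87e-05), so it was not called there. Since both share the same control arrays, the difference between them, 2.29 on the log2 scale, is the comparison of AtHB8 with S17 already given and no separate test.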

How the results depend on the processing

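The counts of genes called in the vascular comparison (6 higher, 0 lower) and for S17 (6 higher, 1 lower) kept their values under every alternative with the 2-fold minimum, except that the 60th percentile filter left 4 higher in each. With no filter on dim probe sets AtHB8 had 5 higher in place of 4, the fifth being DOF6, called absent on every array. Without that minimum, the probe sets called numbered 10376 in the vascular comparison, 2358 between AtHB8 and S17, 8805 for AtHB8, 9245 for S17, 2346 for the epidermis, 2945 for HDG4, 4041 for KAN1 and 930 for LAS, and the members called lower became 1 in the vascular comparison, 4 in the epidermis and 1 in KAN1, with 1 higher in LAS. Between AtHB8 and S17, 1 member (OBP1) was higher with no filter on dim probe sets, where the TMO6 call was lost (adjusted p = 0.0691 in limma). With the 60th percentile filter 1 was lower. In the epidermis 1 was lower with the 60th percentile filter and 4 without the 3 arrays of highest actin ratio, a setting chosen after seeing the data. In KAN1 1 was lower with quantile normalization and with array weights (OBP3, called absent on all arrays compared), and in LAS 1 was lower with the replicate block (DOF5.6, -1.98, adjusted p = 0.0322) and 1 without those 3 arrays (OBP2, -2.22, adjusted p = 0.0206).

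Leaving out 1 array at a time gave 1 to 2 members higher and 2 to 3 lower between AtHB8 and S17, 1 to 3 lower in the epidermis, 1 to 3 higher in HDG4, 0 to 1 lower in KAN1 and 0 to 1 lower in LAS, with 299 to 568 probe sets called in LAS. In LAS, TMO6 turned from -0.47 to 0.54 without the 3 arrays of highest actin ratio and ranged from -1.51 without LAS replicate 2 to 0.58 without replicate 1, and OBP2 turned from -0.89 to between -2.32 without LAS replicate 1 and 0.54 without replicate 2, none of them called. The cause was not tested. The arrays gave no sign of pairing by replicate number. Of 46 pairs of arrays with the same number, 3 correlated above 0.1 (median r = 0.004), against 13 of 108 with different numbers (median r = 0.00045). With 2 or 3 arrays per reporter this cannot show whether arrays were prepared together. A replicate block gave 4373 probe sets called in the vascular comparison against 4351 without it, and changed no other call of a member. The 2 or 3 arrays per reporter and signals near or below the lowest detected level limit DOF6 in every reporter, PEAR2 outside S17 and OBP3 outside the vascular reporters.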
